A study of Mus musculus with 80 samples.

Results

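The genes described are 10 of the 22556 genes in the expression tables, namely the SR splicing factor genes Srsf1, Srsf2, Srsf3, Srsf5, Srsf6, Srsf7, Srsf11 and Tra2b and the kinase genes Clk1 and Clk4. They were chosen by name, as genes with poison exons and detained introns, and the rule itself uses no measured value. All 10 passed the filter on low values in each of the 6 tables. RNA of the chromatin fraction of lysed cells was sequenced (ChrRNA-seq) in 80 libraries of mouse embryonic stem cells (mESCs), and the comparison asked of these genes was loss of YTHDC1 or METTL3 against loss of the exosome adaptors ZCCHC8 and ZFC3H1.

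The cells were feeder-dependent Cast x 129S mESCs in which a TetOn promoter stands in place of the promoter of Xist, on the Cast allele in the METTL3, ZFC3H1 and transgene lines and on the 129S allele, with Bgl stem-loops in Xist, in the YTHDC1 and ZCCHC8 lines. In every line the target protein carried an FKBP12F36V tag, and dTAG-13 (dTAG) leads to its loss. METTL3 is the catalytic subunit of the m6A writer, YTHDC1 the nuclear m6A reader, ZCCHC8 a scaffold of the NEXT complex and ZFC3H1 a subunit of the PAXT connection, and NEXT and PAXT hand nuclear RNA to the exosome. METTL3 was tagged at the N terminus in clones G4 and H1 and at the C terminus in clones C3 and H5, and the other targets had 2 clones each (Y9F and Y12H for YTHDC1, Z4F and Z12H for ZCCHC8, 8H and 11A for ZFC3H1). Both YTHDC1 clones were run in 2 experiments, of which experiment 1 shares its table with ZCCHC8. The transgene lines derive from METTL3 clone H5, whose Rosa26 locus received GFP-METTL3, either wild type (WT) or with the D395A change in the catalytic site. Each was 1 clone of XX cells (WT P2B3, D395A 1F) and 1 clone labelled XiO (WT 1A, D395A 9F), sequenced in 2 experiments, so their replicates measure the spread between experiments of a single clone. Each clone was sequenced untreated, with dTAG for 26 h as the titles give it (the treatment field gives 2 h), with doxycycline (Dox, which induces Xist) for 24 h, and with dTAG added 2 h before Dox and kept during the 24 h of Dox.

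SR proteins bind exonic enhancers through an RNA recognition motif and recruit the spliceosome through their arginine-serine domain, which CLK kinases phosphorylate. SR genes are known for ultraconserved poison exons, alternative exons with an early stop codon that send the transcript to nonsense-mediated decay, and through them SR proteins limit their own production. Clk1, Clk4 and several SR genes also keep detained introns, which are spliced late while the polyadenylated transcript waits in the nucleus on chromatin.

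The poison exons that the GENCODE annotation of build GRCm38 places in decay transcripts of these genes, apart from the exons of their principal coding transcripts, are shown because they are the features for which the genes were chosen and because their reads count towards the values below. Each was read from the RefSeq GRCm38 genome on the strand of the gene, from the first base of the exon to its annotated stop codon, which is in capitals. The Srsf3 exon lies on the plus strand and the stretch shown is chr17:29039454-29039487. The Srsf6 exon is on the plus strand at chr2:162932815-162932966, and the Srsf7 exon on the minus strand at chr17:80205054-80205081. Srsf11 has a pair of them on the minus strand, at chr3:158024209-158024231 and chr3:158023310-158023359, and the Tra2b exon is on the minus strand at chr16:22259181-22259261.
Srsf3: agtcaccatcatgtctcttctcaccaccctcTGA
Srsf6: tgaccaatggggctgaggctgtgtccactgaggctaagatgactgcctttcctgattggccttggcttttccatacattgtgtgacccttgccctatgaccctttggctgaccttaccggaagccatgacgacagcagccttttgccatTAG
Srsf7: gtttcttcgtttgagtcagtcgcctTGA
Srsf11, first: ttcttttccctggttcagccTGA
Srsf11, second: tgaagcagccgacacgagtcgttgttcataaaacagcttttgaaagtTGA
Tra2b: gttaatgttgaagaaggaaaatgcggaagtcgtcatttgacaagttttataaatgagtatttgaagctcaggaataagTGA
The whole exons are 456 bp in Srsf3, 268 bp in Srsf6, 460 bp in Srsf7, 109 and 117 bp in Srsf11, and 276 or 397 bp in Tra2b. By the same search Srsf1, Srsf2, Srsf5, Clk1 and Clk4 had no such separate exon. All 10 genes had both a retained-intron transcript and a decay transcript in the annotation, against 22.8% of the 12113 annotated genes tested. The genes were chosen for such features, so this contrast follows from the choice and is no finding. They also had more annotated transcripts, with a median of 9.5 per gene against 5. GGACT, the best-known sequence context of m6A, was searched on the sense strand and was not in any of these exons. The wider DRACH context (D is A, G or T, R is A or G, H is A, C or T) was in all of them. It occurred 7 times in the whole Srsf3 exon, 11 in Srsf6, 8 in Srsf7, 1 and 3 in Srsf11, and 2 or 4 in Tra2b. Neither context was counted in exons of other genes. In the longest coding transcript of each gene 9 of the 10 held GGACT, against 93.5% of 11720 genes, and the median was 0.52 per kb against 1.04. These counts are letters in a transcript and not measured m6A.

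Recovered depth was 8.58 to 34.4 M reads per library (median 22.5 M), and the lowest count of any of the 10 genes in any library was 561 reads. The RNA of the tagged gene does not report on loss of its protein, and of the targets only Zfc3h1 RNA changed in its own line (log2 change 0.30 ± 0.07, adjusted p = 0.0223). Xist reached at least 1383 CPM with Dox and at most 738 CPM without it. Of 8 embryonic stem cell markers 7 were detected, with a summed level of 788 to 2247 CPM, while Sox2 was listed at 0 in all 80 libraries. Feeder fibroblast markers summed to 1.73 to 18.6 CPM and differentiation markers to 7.18 to 97.3 CPM, both with their highest values in the WT XiO line.

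CPM are reads, scaled to library size, over the whole transcript span of a gene, introns included and both alleles together, so a value shows the chromatin-bound output of a gene and not which isoform was made. Reads were counted by strand and from unique alignments, so reads shared with near-identical processed copies of these genes were left out. Per kb of span, the highest mean level in the 20 untreated libraries was that of Srsf5, with 88.0 ± 28.7 CPM per kb (SD, n = 20). It was followed by Srsf1 with 45.0 ± 16.8, Srsf2 with 35.3 ± 12.7, Srsf6 with 32.9 ± 7.14, Srsf7 with 29.9 ± 6.41, Srsf3 with 24.1 ± 3.52, Clk1 with 23.9 ± 4.58, Tra2b with 19.3 ± 1.83, Srsf11 with 8.69 ± 1.75 and Clk4 with 5.95 ± 1.64 CPM per kb. Neighbours in this order from Srsf1 to Clk1 differed by less than the larger of their SDs, whereas Srsf5 exceeded Srsf1 by more than either SD. The libraries come from several tables and clones, so these SDs hold differences between lines as well as between replicates. Tra2b, a partner of SR proteins in exon activation, was the least variable of the 10 relative to its level. The exonic share of the span ran from 11.8% in Clk4 to 87.0% in Srsf1, so most of the countable span is intron in Clk4, Srsf11 (12.7%), Clk1 (14.8%) and Tra2b (17.5%).

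**Figure D1:**
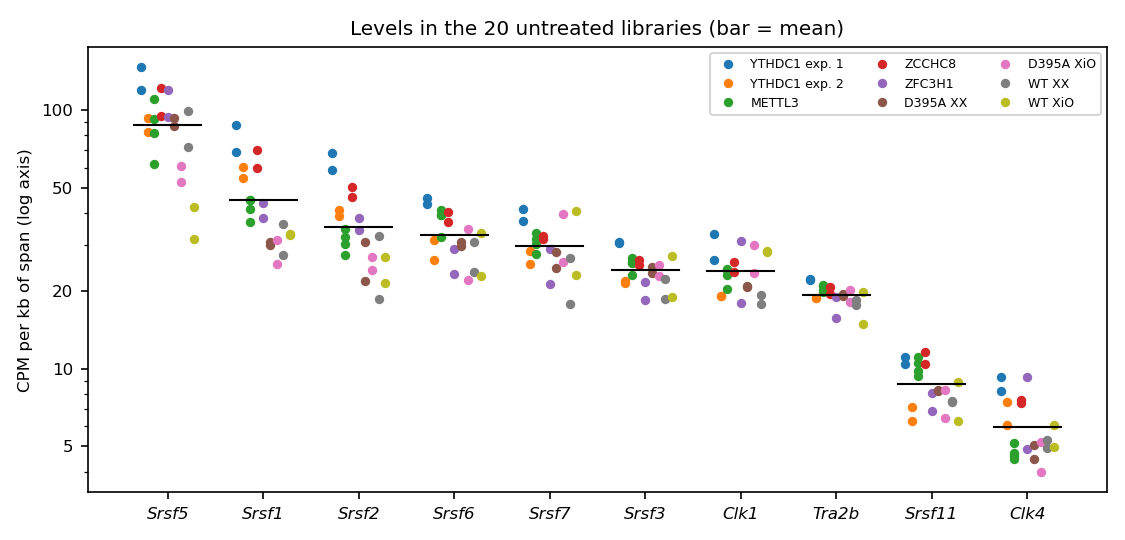
Level of each gene in the 20 untreated libraries, in CPM per kb of span on a log axis, with colours for the lines and bars for the means. Srsf5 was highest with a mean of 88.0 CPM per kb and Clk4 lowest with 5.95.

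On the deposited CPM scale, loss of the PAXT subunit ZFC3H1 gave the largest changes in the degron lines. All that passed the test were upward. Srsf1, Srsf5, Srsf6 and Clk1 rose, 4 of 10, where 6.45% of all 13544 genes tested rose and 3.46% fell. None of the 10 fell, and the median log2 change of the 10 was 0.15 against -0.01 for all genes. Over the 10 genes and 4 pairs of libraries, 33 of 40 values were higher with dTAG, and the genes of a pair share its libraries. Such values were not counted over all genes.

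Srsf1, the prototype SR protein and a regulator of its own transcript, went from 279 CPM untreated to 412 CPM with dTAG in clone 11A and from 322 with Dox to 523 with dTAG and Dox. In clone 8H it went from 244 to 283 CPM without Dox and from 249.9 to 358 CPM with Dox. It was thus higher with dTAG in all 4 pairs, and the groups overlapped only because the 8H level with dTAG lay below the 11A level with Dox. The log2 change, on the scale of log2(CPM + 1), was 0.50 ± 0.07 (SE; adjusted p = 0.00145, limma), or 1.41-fold. Srsf5, a smaller SR protein with a detained intron, measured 469.9 CPM untreated and 690.4 CPM with dTAG in 11A and 602 and 665 CPM in 8H. With Dox it measured 619 CPM without and 779 CPM with dTAG in 11A, and 560.45 and 899 CPM in 8H. All 4 libraries with dTAG lay above all 4 without, and the log2 change was 0.43 ± 0.08 (adjusted p = 0.00847), or 1.35-fold.

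Srsf6, whose poison exon is printed above, went from 131 to 148 CPM in 11A and from 164 to 189 CPM in 8H without Dox, and from 131 to 161 CPM and 159.7 to 192 CPM with Dox. Each pair rose by a similar step, and the clones sat at different levels, so that the groups overlapped. The log2 change was 0.24 ± 0.05 (adjusted p = 0.0163). Clk1, a kinase that phosphorylates SR proteins, measured 217 and 274 CPM in 11A and 376 and 403 CPM in 8H without and with dTAG, and 289 and 331 CPM and 426 and 549 CPM in the same order with Dox. It was higher in all 4 pairs by 0.25 ± 0.06 on the log2 scale (adjusted p = 0.0242). Its paralog Clk4 was higher in all 4 pairs too, but its log2 change of 0.19 ± 0.06 did not pass (adjusted p = 0.0759).

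The other SR genes gave log2 changes of 0.10 for Srsf2, 0.07 for Srsf11, 0.03 for Srsf7, 0.01 for Srsf3 and -0.00 for Tra2b. The 95% interval ran from -0.11 to 0.13 for Srsf3 and from -0.12 to 0.11 for Tra2b, so changes of the size seen for Srsf1 lay outside it. With 1 clone left out, only Srsf1 and Srsf5 stayed called without 11A, while Clk4 joined the called genes without 8H. Taken without Dox alone none of the 10 was called, where 237 of 13544 genes rose and 54 fell. With Dox alone only Srsf1 and Srsf5 were called, where 343 of all genes rose and 84 fell. In bulk RNA, fewer cells of a type and less RNA per cell cannot be told apart. The stem cell markers Klf4 (-0.41) and Nanog (-0.26) fell in the same line, and feeder markers summed to at most 8.86 CPM with dTAG and 7.98 CPM without. Their part in the result was not tested.

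**Figure D2:**
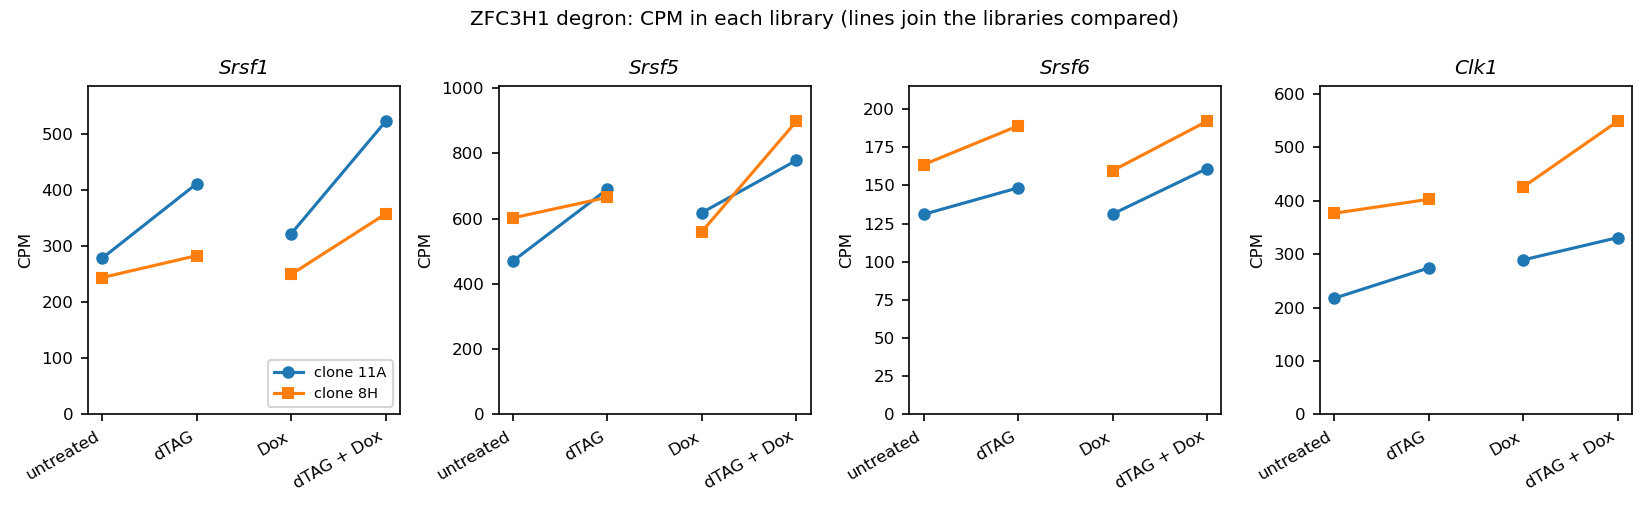
CPM of Srsf1, Srsf5, Srsf6 and Clk1 in each of the 8 ZFC3H1 libraries, by treatment, with a symbol per clone and lines joining the libraries that were compared. All 16 lines slope upward, most steeply for Srsf1 in clone 11A with Dox, from 322 to 523 CPM.

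Loss of the NEXT subunit ZCCHC8 gave smaller changes in both directions. Srsf1 and Srsf11 rose and Srsf2 and Srsf6 fell, 2 and 2 of 10, where 29.4% of 13857 genes rose and 24.1% fell, so the share of the 10 called was below that of all genes in each direction. The median of the 10 was -0.04.

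Srsf1 was again higher in all 4 pairs, with 448 and 534 CPM without and with dTAG in Z12H and 382 and 413 CPM in Z4F, and with Dox 453 and 501 CPM in Z12H and 399 and 508 CPM in Z4F. The groups overlapped between clones. Its log2 change was 0.21 ± 0.07 (adjusted p = 0.015). Srsf2, one of the most abundant SR proteins, showed the opposite, with 148 and 116 CPM in Z12H and 161.5 and 125 CPM in Z4F without and with dTAG, and with Dox 171 and 149.8 CPM and 191 and 177 CPM. All 4 pairs were lower with dTAG, by 0.25 ± 0.04 on the log2 scale (adjusted p = 7.91e-05), or 0.839-fold. Srsf2 was called in 9 of 10 alternative settings and was the most stable of the calls in this line.

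Srsf6 measured 226 and 195 CPM in Z12H and 208 and 172 CPM in Z4F without and with dTAG, and with Dox 228 and 206 CPM and 233 and 229 CPM. It was lower with dTAG in all 4 pairs and its log2 change was -0.16 ± 0.05 (adjusted p = 0.0108). Srsf11, an SR-related protein with long introns, rose by only 0.09 ± 0.04 (adjusted p = 0.0319) and was called in 3 of 10 alternatives. Under median-ratio scaling, which sets the middle of all autosomal genes equal between libraries, Srsf1 and Srsf11 were no longer called and Srsf3 (-0.13) and Srsf7 (-0.18) joined Srsf2 (-0.33) and Srsf6 (-0.24) as lower, 4 of 10, where 35.5% of all genes were lower. Without clone Z4F only Srsf2 and Srsf6 stayed called, and without Z12H only Srsf2 and Srsf11. The differentiation markers Pax6 (0.48), T (0.33) and Gata4 (0.29), the 3 of 8 that could be tested, rose in this line, with a summed level of 14.9 to 17.2 CPM with dTAG and 10.1 to 13.3 CPM without. Of 7 stem cell markers Tfcp2l1 (-0.63) and Klf4 (-0.41) fell and Esrrb (0.20) rose, with a summed level of 1778 to 2168 CPM with dTAG and 2068 to 2159 CPM without. The part of these markers in the result was not tested.

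Loss of the reader YTHDC1 left most of the 10 with small log2 changes, and Srsf2 fell in both experiments. In experiment 1 Srsf6 rose and Srsf2 fell, 1 and 1 of 10, where 18.6% of all 13857 genes rose and 14.3% fell. In experiment 2 Srsf1, Srsf2, Srsf5 and Clk1 fell, 4 of 10 and none upward, where 15.9% of 13722 genes rose and 15.8% fell. The medians of the 10 were -0.07 and -0.06.

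Srsf2 went from 188 to 173 CPM in Y12H and from 218 to 201 CPM in Y9F without Dox in experiment 1, and from 209.65 to 178 CPM and 213 to 207 CPM with Dox. In experiment 2 it went from 132 to 117 CPM in Y12H and from 125 to 103 CPM in Y9F, and with Dox from 143 to 121 CPM and from 123 to 106 CPM. All 8 pairs were lower with dTAG, and in experiment 2 the libraries with and without dTAG did not overlap. The log2 change was -0.13 ± 0.04 (adjusted p = 0.0255) in experiment 1 and -0.23 ± 0.05 (adjusted p = 0.00069) in experiment 2. Both experiments used the same clones, so they are repeats of those clones rather than further clones.

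Srsf6 was higher with dTAG in all 8 pairs, from 244 to 256 CPM and from 257 to 292 CPM in Y12H and Y9F without Dox in experiment 1, and from 237 to 282 CPM and 288 to 302 CPM with Dox. In experiment 2 it measured 176 and 189 CPM in Y12H and 147.5 and 157 CPM in Y9F without and with dTAG, and with Dox 202 and 224 CPM and 183 and 184.5 CPM. The log2 change of 0.14 ± 0.05 passed in experiment 1 (adjusted p = 0.0349) and that of 0.09 ± 0.04 in experiment 2 did not (adjusted p = 0.134). Srsf6 in experiment 1 was called in 2 of 10 alternatives only, and without clone Y9F or without clone Y12H 0 of the 10 genes were called there. Under edgeR, median-ratio scaling or no filter on low values, Srsf2 alone stayed called in experiment 1.

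Srsf1 fell by 0.16 ± 0.05 on the log2 scale in experiment 2 (adjusted p = 0.0229), from 385.5 to 327 CPM in Y12H without Dox and from 407 to 325 CPM in Y9F with Dox, while the Y9F pair without Dox measured 350.3 and 355 CPM. It was lower in 3 of 4 pairs. In experiment 1 its log2 change of -0.14 ± 0.07 did not pass (adjusted p = 0.126). Srsf5 changed by -0.16 ± 0.04 (adjusted p = 0.00508) and Clk1 by -0.14 ± 0.04 (adjusted p = 0.0126) in experiment 2, against -0.16 ± 0.08 and -0.12 ± 0.06 in experiment 1, which did not pass. Without clone Y12H only Srsf2 and Srsf5 stayed called in experiment 2, and without Y9F only Srsf1, Srsf2 and Clk1. Clk4, Srsf3, Srsf7, Srsf11 and Tra2b had log2 changes between -0.08 and 0.03 in both experiments. Of 7 stem cell markers 1 fell in experiment 1, Tfcp2l1 (-0.35), and 0 rose. In experiment 2 it was 3 of 7, Tfcp2l1 (-0.37), Nanog (-0.29) and Dppa5a (-0.26), and 0 rose. Of the feeder markers 0 of 2 were called in experiment 1, and 1 of 3 fell in experiment 2, Thy1 (-0.31). The part of these markers in the result was not tested.

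Since YTHDC1 experiment 1 and ZCCHC8 share a table, the difference between their dTAG effects could be tested directly. It passed for 2 of 10 genes, Srsf1 and Srsf6, where 43.9% of 13857 genes differed in either direction. The effect on Srsf1 was higher with ZCCHC8 loss by 0.36 ± 0.10 on the log2 scale (95% interval 0.15 to 0.56, adjusted p = 0.00725, limma). That on Srsf6 was lower with ZCCHC8 loss, with a difference of -0.31 ± 0.07 (95% interval -0.46 to -0.16, adjusted p = 0.00211). Srsf6 thus moved up in all 4 YTHDC1 pairs and down in all 4 ZCCHC8 pairs of that table, and its difference was called in 10 of 11 alternatives. Srsf2, which fell in both lines, gave a difference of -0.13 with an interval of -0.25 to -0.00 (adjusted p = 0.0906). For Clk1, Srsf3, Srsf7 and Tra2b the intervals lay within 0.22 of 0 on the log2 scale. ZFC3H1 and METTL3 lie in other tables, so their values stand beside these with no test: the log2 change of Srsf1 was 0.50 with ZFC3H1 loss and 0.15 ± 0.11 with METTL3 loss, and that of Srsf6 was 0.24 and 0.01 ± 0.10.

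**Figure D3:**
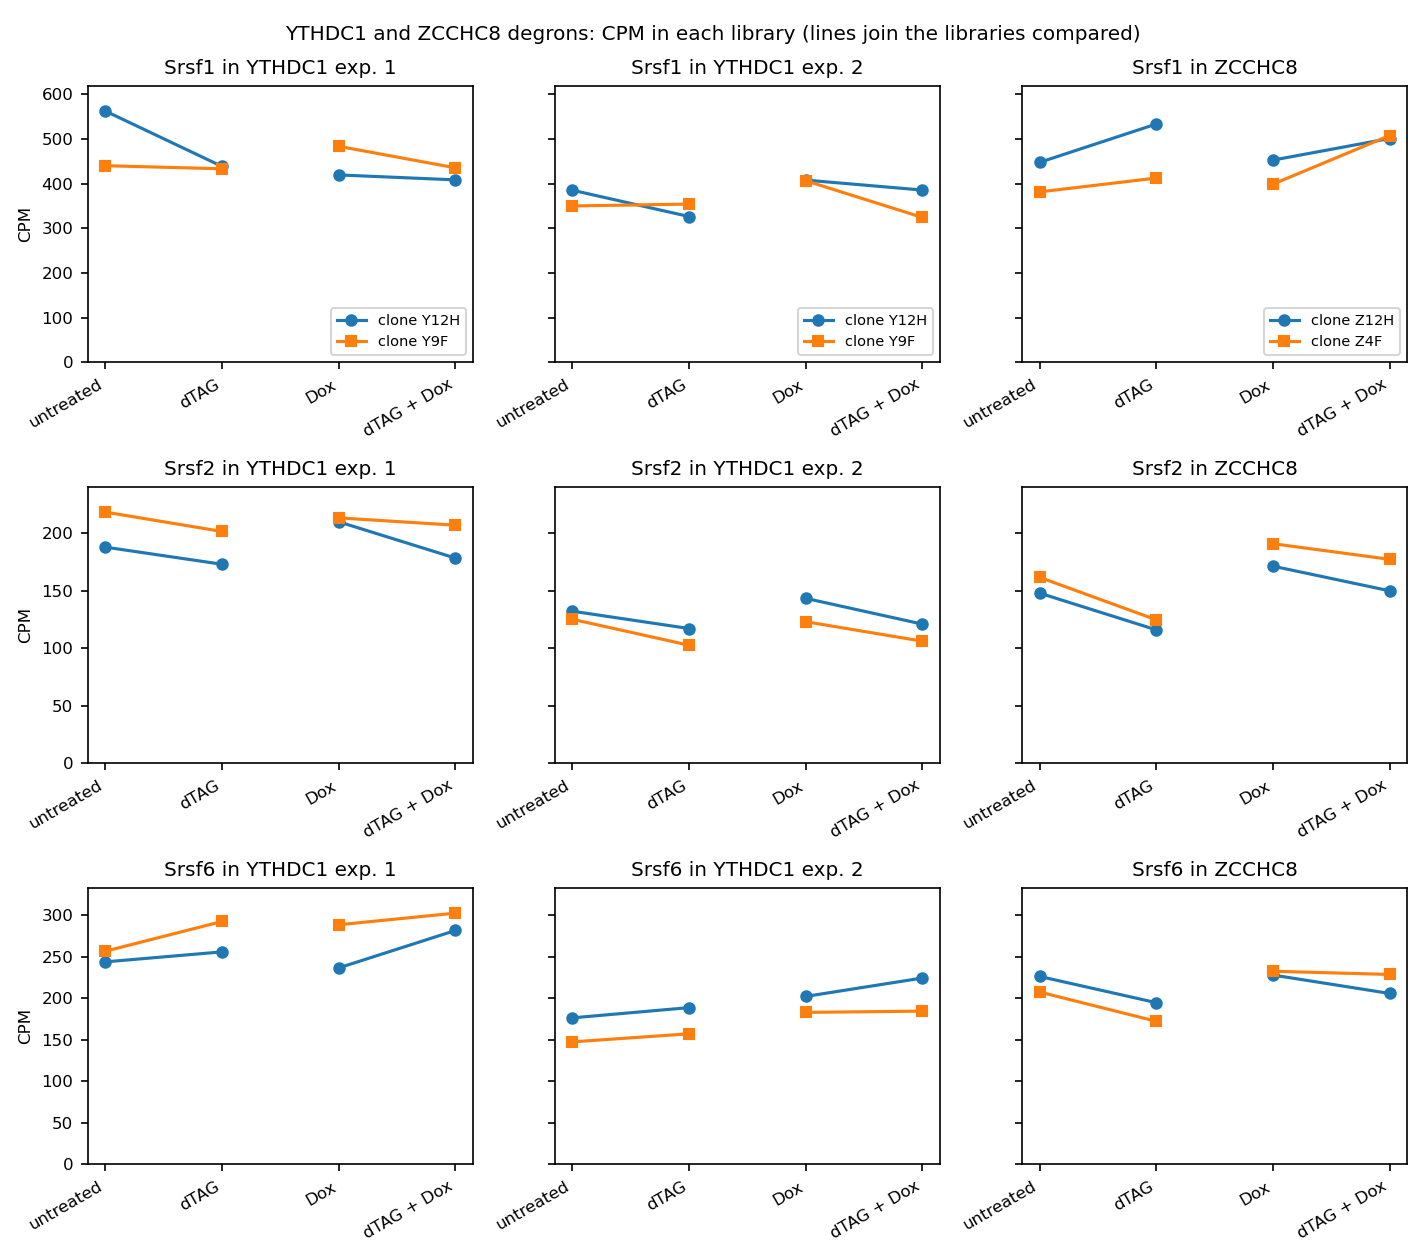
CPM of Srsf1, Srsf2 and Srsf6 in each library of YTHDC1 experiments 1 and 2 and of ZCCHC8, by treatment, with a symbol per clone and lines joining the libraries that were compared. The Srsf2 lines fall in all 12 pairs, while the Srsf6 lines rise in the 8 YTHDC1 pairs and fall in the 4 ZCCHC8 pairs.

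Loss of METTL3 gave no called change among the 10 genes, where 35.1% of 13367 genes rose and 8.69% fell. By limma 0 of the 10 passed, and 0 did at an unadjusted p under 0.05, where 7231 of all genes did. By edgeR on the recovered reads Srsf3, Srsf11 and Clk1 were lower, where 2343 of 13367 genes rose and 2407 fell. The log2 changes of the 10 ran from -0.20 for Srsf11 to 0.15 for Srsf1 with a median of 0.01, while the median of all genes was 0.22. The 10 genes therefore lay below the middle of the table, and at or below the 42.5th percentile of all changes.

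Relative to that middle, that is under median-ratio scaling, all 10 had negative log2 changes, from -0.47 to -0.12. Their median was -0.26, while that of the 10 with ZFC3H1 loss under the same scaling was 0.13. Srsf3, a short SR protein that binds pyrimidine-rich RNA, was at -0.42 ± 0.09 (adjusted p = 0.00385), Srsf11 at -0.47 (adjusted p = 0.0193) and Clk1 at -0.29 (adjusted p = 0.0236). These 3 of 10 were called lower, where 22.2% of all genes were lower. The direction for Srsf1, Srsf2, Srsf6, Srsf7 and Clk4 thus depended on the scaling. On the deposited scale these were above 0 and under median-ratio scaling below it, with 0.15 and -0.12 for Srsf1.

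The METTL3 clones did not move together. Srsf1 went from 237 to 413 CPM in clone C3 and from 288 to 234 CPM in G4 without Dox, and in H1 and H5 from 264 to 272 CPM and from 286 to 360.01 CPM. With Dox it went from 301 to 406 CPM in C3, 300.2 to 248 CPM in G4, 245 to 292 CPM in H1 and 393 to 374 CPM in H5. Averaged over both pairs, 9 of the 10 genes were higher with dTAG in C3 and 0 of 10 in G4, with medians of 0.34 and -0.27 on the log2 scale, and 4 and 6 of 10 were higher in H1 and H5. Srsf3 was lower in G4, H1 and H5 (276 to 194, 248 to 206 and 288 to 276 CPM without Dox) and higher in C3 (274 to 302 CPM). Without C3, Srsf3 alone was called, as lower. Genes with a span under 3 kb took 0.497 to 0.797% of reads in C3 without dTAG and 1.22 to 4.57% with it, against 2.53 to 2.95% and 2.07 to 2.46% in G4. The part of this shift in the values was not tested. Of 7 stem cell markers Klf4 (1.43), Pou5f1 (0.77) and Nanog (0.42) rose with METTL3 loss and 0 fell. Under median-ratio scaling 1 rose, Klf4 (1.16), and 1 fell. Their summed level was 1196 to 2247 CPM with dTAG and 1264 to 2163 CPM without. Of 4 differentiation markers T (-0.37) fell, and of 2 feeder markers Thy1 (0.49) rose. The part of these markers in the result was not tested.

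In cells that express the D395A transgene all 10 genes had negative log2 changes with dTAG, in XX and in XiO cells. In XX cells Clk1, Srsf1 and Srsf3 fell, 3 of 10 and none upward, where 13.4% of 13364 genes rose and 4.27% fell. Clk1 went from 252 to 197.5 CPM and from 249.65 to 199.5 CPM in experiments 1 and 2 without Dox, and from 285 to 236 CPM and 285 to 237 CPM with Dox. The groups did not overlap, and the log2 change was -0.30 ± 0.05 (adjusted p = 0.00319). Srsf1 went from 197 to 159.8 CPM and 192 to 157 CPM without Dox and from 196 to 161 CPM and 206 to 174 CPM with Dox, a log2 change of -0.28 ± 0.09 (adjusted p = 0.0446). Srsf3 changed by -0.25 ± 0.07 (adjusted p = 0.0278), from 200.6 to 243 CPM with dTAG against 250.3 to 268 CPM without. Srsf5, Srsf6 and Srsf11 did not pass, with log2 changes of -0.38 (adjusted p = 0.0857), -0.26 (adjusted p = 0.125) and -0.18 (adjusted p = 0.113). Their libraries with and without dTAG did not overlap either, but how many of all genes showed no overlap was not counted in any line.

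Under median-ratio scaling Srsf5, Srsf6, Srsf11 and Tra2b were called as well, 7 of 10 lower where 9.16% of all genes were lower, with log2 changes of all 10 from -0.50 to -0.16. Leaving out experiment 1 or 2 left 0 of the 10 called by limma, where 1 and 0 of all genes were called. In D395A XiO cells the log2 changes ran from -0.27 for Clk1 to -0.13 for Srsf2. By limma 0 of the 10 passed there, where 4.68% of 13448 genes rose and 1.17% fell. At an unadjusted p under 0.05 it was 1 gene, where 2744 of all genes passed. By edgeR it was 0, where 348 of all genes rose and 320 fell. Under median-ratio scaling 0 of the 10 were called and 2.97% of all genes were lower. Over the 10 genes and 4 pairs of libraries, 38 of 40 values were lower with dTAG in D395A XX cells and 38 of 40 in D395A XiO cells. The genes of a pair share its libraries, and such values were not counted over all genes. The median log2 change of all genes was 0.09 in D395A XX cells and 0.12 in D395A XiO cells.

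The libraries of an experiment came from 1 batch of cells, and with experiment as a block in the fit more of the 10 genes passed, as did more of all genes. In D395A XX cells 9 of the 10 then fell, all but Clk4, where 14.9% of all genes fell and 34.3% rose. Srsf5 had the lowest adjusted p among them (2.7e-05), with a log2 change of -0.38 ± 0.05, followed by Clk1 (3.74e-05). In D395A XiO cells 8 of the 10 fell with the block, all but Srsf2 (adjusted p = 0.156) and Srsf11 (adjusted p = 0.0572), where 12.4% of all genes fell and 37.7% rose. Clk1 had the lowest adjusted p there (0.000308), at -0.27 ± 0.04 on the log2 scale.

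Cell markers moved in the same lines. The summed stem cell markers were 1299 to 1416 CPM with dTAG and 1528 to 1742 CPM without in D395A XX cells, where 1 of 7 tested was called, Zfp42 (-0.39). In D395A XiO cells the sums were 1332 to 1604 CPM with dTAG and 1383 to 2189 CPM without, and 0 of 7 were called. Of 3 differentiation markers tested in D395A XX cells T (-1.03) and Pax6 (-0.80) fell, with summed levels of 9.19 to 19.7 CPM with dTAG and 17.5 to 27.3 CPM without. In D395A XiO cells 0 of 4 were called, and the sums were 10.8 to 13.1 CPM with dTAG and 14.0 to 16.8 CPM without. The part of these markers in the result was not tested.

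With the WT transgene 0 of the 10 genes were called in XX cells and 0 in XiO cells, by limma and by edgeR, and 0 had an unadjusted p under 0.05. Over all genes 0% rose and 0% fell in both lines. With experiment as a block these counts and shares were again 0, and 3 of the 10 genes in XX cells and 0 in XiO cells had an unadjusted p under 0.05. In XX cells all 10 log2 changes were below 0, from -0.18 for Srsf1 to -0.01, and over the 10 genes and 4 pairs 27 of 40 values were lower. These values too share libraries and were not counted over all genes. In XiO cells Srsf5 was at 0.02 and the rest between -0.08 and -0.01. Under median-ratio scaling all 10 were below 0 in both WT lines, from -0.21 to -0.03 in XX and from -0.10 to -0.01 in XiO cells. The difference between the D395A and WT effects was negative for all 10 genes in both backgrounds and passed for none by limma or edgeR without the block. In XX cells 2.63% of all genes differed in either direction. Of the 10, Clk1 came closest, at -0.20 with a 95% interval of -0.37 to -0.04 (adjusted p = 0.186), and 2 genes had an unadjusted p under 0.05. In XiO cells 0.0297% of all genes differed, the lowest adjusted p of the 10 was 0.788, 0 had an unadjusted p under 0.05, and the interval for Clk1 was -0.63 to 0.13.

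With experiment as a block the difference passed for 5 of 10 genes in XX cells and for 4 in XiO cells, all with the lower effect in D395A cells, where 28.2% and 28.7% of all genes differed in either direction. In XX cells these were Clk1, Srsf2, Srsf3, Srsf5 and Srsf6, among which Clk1 differed by -0.20 ± 0.06 (95% interval -0.34 to -0.07, adjusted p = 0.0217) and Srsf6 by -0.24 ± 0.08 (adjusted p = 0.0265). In XiO cells these were Clk1, Srsf1, Srsf5 and Srsf6, among which Clk1 differed by -0.25 ± 0.06 (95% interval -0.39 to -0.11, adjusted p = 0.011). The call on this difference thus depended on whether the experiment entered the fit. Each line is 1 clone, so the clone and the transgene cannot be told apart.

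**Figure D4:**
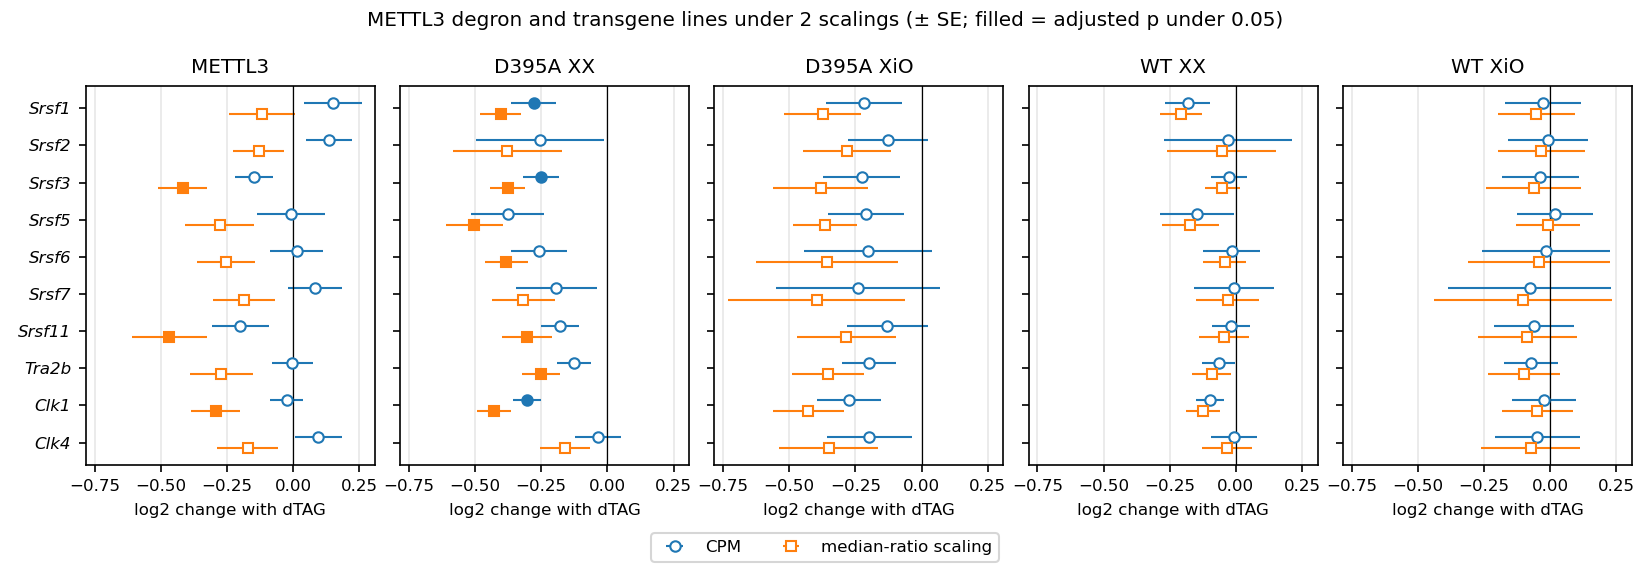
Log2 change with dTAG (± SE from limma) of the 10 genes in the METTL3 degron line and the 4 transgene lines, on the deposited CPM scale (circles) and under median-ratio scaling (squares), with filled symbols for an adjusted p under 0.05. In the METTL3 and D395A lines the squares lie left of the circles, and in the WT lines they do so by less. All squares are below 0 in each line, from -0.21 to -0.03 in WT XX and from -0.10 to -0.01 in WT XiO.

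**Figure D5:**
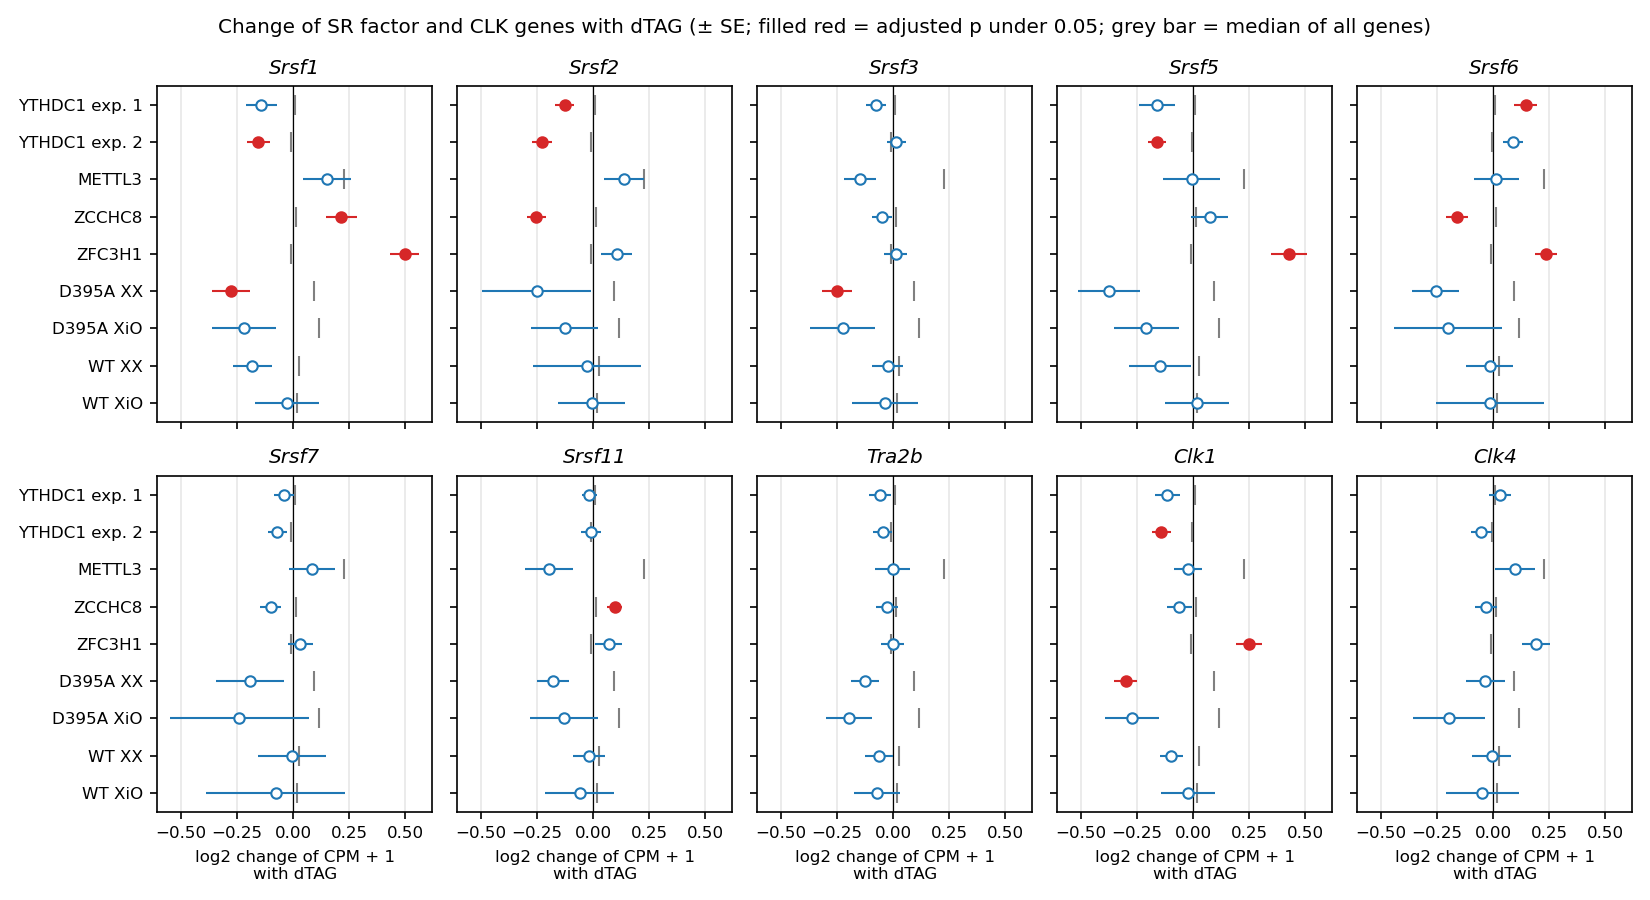
Log2 change with dTAG (± SE from limma, on the log2(CPM + 1) scale) of each gene in the 9 lines and experiments, with filled red points for an adjusted p under 0.05 and grey bars for the median of all genes. Srsf1 spans from -0.28 in D395A XX to 0.50 in ZFC3H1, while Tra2b stays between -0.20 and -0.00.

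Dox by itself was measured as the background of the inducer. With Dox and no dTAG, Srsf3, Srsf5, Srsf6, Srsf7 and Clk1 rose in YTHDC1 experiment 2, 5 of 10, where 10% of genes changed in either direction, and Srsf7 had the largest log2 change at 0.37 ± 0.06 (adjusted p = 0.000239). In YTHDC1 experiment 1 Srsf7 rose by 0.25 and Clk4 fell by 0.28 (12.6% of genes), and under median-ratio scaling the call on Srsf7 was lost (adjusted p = 0.0566). In ZCCHC8 Srsf2 (0.22), Srsf3 (0.23) and Srsf7 (0.31) rose (10.9% of genes), of which Srsf7 alone was called under median-ratio scaling. By limma 0 of the 10 were called in METTL3 (0.778% of genes) and 0 in ZFC3H1 (1.11%), with 1 gene in each at an unadjusted p under 0.05. The effect of Dox was not tested with edgeR. The dTAG effect did not differ between libraries with and without Dox for any of the 10 at an adjusted p under 0.05, with the lowest adjusted p, 0.42, in ZCCHC8.

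Other genes of the splicing machinery were described from lists of names. Of the 5 other SR family genes, Tra2a, the paralog of Tra2b, fell in METTL3 (-0.46), D395A XX (-0.33), YTHDC1 experiment 1 (-0.20) and ZCCHC8 (-0.24), and none of the 5 was called with ZFC3H1 loss. Of the other SR protein kinases, 6 were tested, and 3 and 4 fell in YTHDC1 experiments 1 and 2 (14.3% and 15.8% of all genes) and 4 with ZCCHC8 loss (24.1%). With METTL3 loss 3 of the 6 rose and 2 fell, where 35.1% and 8.69% of all genes did, and under median-ratio scaling 0 rose and 2 fell. Srpk2, a cytoplasmic SR kinase, fell by 0.36 and 0.35 on the log2 scale in the YTHDC1 experiments and by 0.21 with ZFC3H1 loss. Of 20 SR-related and early spliceosome genes, 5 rose and 1 fell with ZFC3H1 loss, where 6.45% and 3.46% of all genes did, led by Pnn (0.97 ± 0.12), Rsrp1 (0.96 ± 0.09) and Luc7l3 (0.87 ± 0.10), log2 changes larger than that of Srsf1. In ZCCHC8 2 of the 20 rose and 8 fell, where 29.4% and 24.1% of all genes did, and under median-ratio scaling 1 rose and 14 fell, where 35.5% of all genes fell. Of 10 genes of nonsense-mediated decay, which removes poison exon transcripts, 0 rose and 7 fell with ZCCHC8 loss, and 0 and 8 under median-ratio scaling, with Upf3a (-0.33), Smg5 (-0.31) and Upf3b (-0.25) lowest, while 1 rose with ZFC3H1 loss (Smg1, 0.35). Of 23 hnRNP and PTB genes 4 rose and 3 fell with METTL3 loss (35.1% and 8.69% of all genes). With ZCCHC8 loss 2 rose and 6 fell (29.4% and 24.1%). In YTHDC1 experiment 1 it was 3 and 5, where 18.6% and 14.3% of all genes rose and fell, and in experiment 2 it was 3 and 4 (15.9% and 15.8%). With ZFC3H1 loss 3 rose and 1 fell (6.45% and 3.46%), and in D395A XX 1 and 1 (13.4% and 4.27%). Under median-ratio scaling 1 rose and 10 fell with METTL3 loss, 1 and 10 with ZCCHC8 loss, and 0 and 7 in D395A XX. Of all genes 22.2%, 35.5% and 9.16% fell there in that order. Under that scaling it was 2 and 1 with ZFC3H1 loss, and 3 and 6 and 3 and 3 in YTHDC1 experiments 1 and 2. On the deposited scale Hnrnpa1 fell in METTL3 (-0.78), D395A XX (-0.38), both YTHDC1 experiments (-0.25 and -0.19) and ZCCHC8 (-0.29). Hnrnpa0 rose in METTL3 (0.66) and both YTHDC1 experiments (0.43 and 0.45), and Hnrnpu in ZCCHC8 (0.36) and ZFC3H1 (0.44).

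Across the 80 libraries, centred within each clone of each table, the 10 genes varied in the same direction. Pearson's r was above 0 in all 45 pairs of genes, with a median of 0.53, and was highest for Srsf3 with Srsf7 (0.84) and lowest for Srsf3 with Clk4 (0.01). The points share libraries, depth and the composition of each library, so this is a description, and under median-ratio scaling the median was 0.67. Among 12661 other genes, those closest to the mean of the 10 were Sfpq (r = 0.89), Rsrc2 (0.87), Nop58 (0.84), Rbm39 (0.82), Papolg (0.81), Csnk1a1 (0.80), Hnrnph1 (0.80), Fkbp3 (0.79), Pnrc2 (0.78) and March7 (0.77).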

How the data were processed

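Chromatin-associated RNA-seq of 80 libraries in 36 groups was analysed from the 6 expression tables. Per the study's methods, the authors filtered out reads matching rRNA (bowtie2), mapped what was left with STAR to mm10 masked at the variants between the strains, kept unique alignments, counted them by strand over whole transcripts with featureCounts and deposited CPM scaled with edgeR. All values were whole multiples of what 1 read is worth (100% within 0.1 reads), which gave depths of 8.58 to 34.4 M reads. Reads were counted without molecular identifiers. The 12 columns with no sample of the series were not used. Of 56 replicate pairs 0 were identical, and chi-square over degrees of freedom was 8.05 or more.

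Log2(CPM + 1) was fitted with limma 3.58.1 in R 4.3.3 (lmFit, eBayes with trend) with all libraries of a table, leaving out genes whose mean was under 1 CPM. The effect of dTAG was the mean of dTAG minus untreated and dTAG + Dox minus Dox. In the degron lines the clone entered as a block, since the labels name it as the cell line, and the residuals of a clone's libraries correlated with means of 0.29 to 0.87 per clone (single pairs down to -0.18 in METTL3). In the transgene lines the fit had no block. Per the study's reporting form, the wells of a replicate came from 1 batch of cells, so the experiment number also pairs libraries there, and their residuals correlated with means of 0.57 to 0.88 per clone (lowest 0.43). Values with experiment as a block are given beside the results they change. P-values were two-sided and adjusted by Benjamini-Hochberg over all genes tested, with calls under 0.05. In the degron lines they measure how far the effects of treatment varied between clones, with the level of each clone taken out. In the transgene lines they measure the spread between experiments of 1 clone. Lines fitted together share 1 estimate of the spread, as YTHDC1 experiment 1 and ZCCHC8 do, and D395A and WT. Alternatives were median-ratio scaling, a pseudocount of 0.1, no filter, edgeR 4.0.16, Dox subsets, other blocks and left-out clones. The 10 genes, the lists and the tests were chosen with earlier results of these data known. The genes named were the 10, up to 3 called genes per list and line with the largest change, and the 10 most similar genes.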

Additional observations from a re-analysis of the deposited data

Results flagged for a closer look

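For 2 genes the dTAG effect differed between ZCCHC8 and YTHDC1 (experiment 1) by limma. The difference, ZCCHC8 minus YTHDC1 on the log2 scale, was 0.36 for Srsf1 and -0.31 for Srsf6. Srsf1 was higher with dTAG in 4 of 4 ZCCHC8 pairs and lower in 4 of 4 YTHDC1 pairs, and Srsf6 was lower in 4 of 4 and higher in 4 of 4. In the METTL3 groups of 4 libraries, 40 sets of values were checked for a library far from the rest and 0 had one.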

How the results depend on the processing

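Of 1220 recomputed log2 changes of the 10 genes none that was called changed sign. Of the 184 that started from a call, 111 kept it and 73 lost it, and 47 gained one. A pseudocount of 0.1 changed no call. Counts of genes called in a comparison, which started at 0 in METTL3, 2 in YTHDC1 experiment 1, 4 in YTHDC1 experiment 2, 4 in ZCCHC8, 4 in ZFC3H1, 3 in D395A XX, 0 in D395A XiO and 2 for ZCCHC8 against YTHDC1, moved as follows. With edgeR they were 3 in METTL3, 1 in YTHDC1 experiment 1 and 6 in D395A XX, and with median-ratio scaling 3, 1 and 7. Over all genes edgeR called 2343 higher and 2407 lower, 2425 and 2357, and 1301 and 1027 in the same order. Median-ratio scaling called 2018 and 2974, 2293 and 2344, and 1149 and 1224. With no filter 1 was called in YTHDC1 experiment 1 (2392 of 20630 genes higher and 1652 lower). With only the libraries of the line 6 were called in D395A XX (2965 of 13310 genes higher and 1073 lower). With Dox alone 2 were called in ZFC3H1 and 0 in YTHDC1 experiment 1, ZCCHC8, D395A XX and ZCCHC8 against YTHDC1. Over all genes, higher and lower in that order, it was 343 and 84, 1363 and 789, 3490 and 2108, 328 and 98, and 2351 and 1757. Without Dox alone 2 were called in ZCCHC8, 1 in YTHDC1 experiment 2, 1 in D395A XX, 0 in YTHDC1 experiment 1 and 0 in ZFC3H1. All genes there gave 2756 and 2240, 1144 and 1293, 649 and 154, 1463 and 1171, and 237 and 54. Smaller moves came on top. With edgeR Srsf1 was lost in YTHDC1 experiment 2 and Srsf11 in ZCCHC8. With no filter Srsf1 was lost in YTHDC1 experiment 2, ZCCHC8 and D395A XX, and Clk1 in ZFC3H1. Median-ratio scaling added Srsf2 for ZCCHC8 against YTHDC1. With only the libraries of the line Srsf5 was added in YTHDC1 experiment 1 and Srsf11 lost in ZCCHC8. With Dox alone Srsf1 was lost in YTHDC1 experiment 2. Each Dox subset compares fewer libraries than the main contrast. The cause of these shifts was not tested.

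With no replicate block, so that the pairing by clone is left out, 0 were called in YTHDC1 experiments 1 and 2, 1 in ZCCHC8, 0 in ZFC3H1 and 1 for ZCCHC8 against YTHDC1. Calls over all genes fell too, to 0 of 13544 in ZFC3H1 and to 244 higher and 130 lower of 13722 in YTHDC1 experiment 2. Of 13857 genes 1377 were higher and 836 lower in YTHDC1 experiment 1, and 3156 and 2036 in ZCCHC8. For ZCCHC8 against YTHDC1 it was 2151 and 1595. With experiment as a replicate block, 9 were called in D395A XX, 8 in D395A XiO, 5 for D395A against WT in XX and 4 in XiO, all lower. This replicate block changed no other count of calls. Leaving out a clone or experiment gave 0 to 1 in METTL3, 0 to 0 in YTHDC1 experiment 1, 2 to 3 in YTHDC1 experiment 2, 2 to 2 in ZCCHC8, 2 to 3 for ZCCHC8 against YTHDC1, 2 to 5 in ZFC3H1 and 0 to 0 in D395A XX. For ZFC3H1 and YTHDC1 experiment 2 this used an additive model of dTAG and Dox, chosen after seeing the data, since the full model had no residual degrees of freedom. In YTHDC1 experiment 1, ZCCHC8 and D395A XX the line then had 1 library per group and no spread of its own. The spread there came wholly from the other line in the fit, so these calls do not measure the spread of the line itself. Each of the 10 genes had at least 561 reads in every library.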
